A study of Mus musculus with 12 samples.

Results

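The 34 genes described here are the NF-kB transcription factor subunits, their inhibitors and a set of inflammatory genes that NF-kB is known to switch on, chosen by name out of 31093 gene names on the array. They were followed in mouse hematopoietic stem and progenitor cells that had left the marrow. Lineage-negative, Sca-1+, Kit+ (LSK) cells were sorted from male DBA2/J mice after enrichment for Kit, and total RNA was hybridised to 12 one-colour Agilent arrays, 3 for each of 4 groups. The groups were blood LSK cells after G-CSF (5 days of treatment, 9 injections), blood LSK cells after AMD3100 (1 hour), blood LSK cells after CWHM-823 with tGro-b (the time is not given in the labels) and marrow LSK cells after PBS. G-CSF is the cytokine in common clinical use for mobilization, AMD3100 blocks the chemokine receptor CXCR4, CWHM-823 is an inhibitor of the integrin VLA-4, and tGro-b is a form of a CXCR2 chemokine. Ages are not given, and nothing in the labels ties each array to its own animal, so p-values measure array-to-array spread, which may be technical. Blood of untreated mice was not analysed here, so in each comparison with marrow the treatment and the tissue cannot be told apart.

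NF-kB dimers of Rel-family proteins are held in the cytoplasm by IkB inhibitor proteins. Signals from cytokine and pattern receptors lead to phosphorylation and breakdown of IkB, the dimers enter the nucleus, and among the genes they switch on within minutes to hours are those for the inhibitors themselves, so that the pathway limits its own activity. In hematopoietic cells the pathway is best known for the response to infection and to the cytokines TNF and IL-1.

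Promoter sequence is shown for members that passed in a comparison with marrow: 4 that hold a match to the NF-kB consensus motif, and Tnf and Ptgs2, which hold none in the same window. Each sequence is the 250 bases before the RefSeq transcript start (GRCm38.p6), 5′ to 3′ on the gene's strand, with matches to the motif on either strand in capitals.
Nfkbid (chr7:30422156-30422405, plus strand, the second of 3 annotated starts): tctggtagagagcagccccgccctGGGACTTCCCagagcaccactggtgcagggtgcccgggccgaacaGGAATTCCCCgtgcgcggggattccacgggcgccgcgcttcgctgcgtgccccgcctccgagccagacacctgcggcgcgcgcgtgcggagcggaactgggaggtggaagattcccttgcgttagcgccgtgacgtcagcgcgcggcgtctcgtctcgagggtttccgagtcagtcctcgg
Tnfaip3 (chr10:19015411-19015660, minus strand, the first of 2 annotated starts): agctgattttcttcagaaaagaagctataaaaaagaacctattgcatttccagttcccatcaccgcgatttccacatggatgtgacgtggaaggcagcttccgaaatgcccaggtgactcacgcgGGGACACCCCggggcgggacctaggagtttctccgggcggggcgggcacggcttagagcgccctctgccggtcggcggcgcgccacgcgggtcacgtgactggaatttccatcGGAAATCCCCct
Nfkbia (chr12:55492648-55492897, minus strand): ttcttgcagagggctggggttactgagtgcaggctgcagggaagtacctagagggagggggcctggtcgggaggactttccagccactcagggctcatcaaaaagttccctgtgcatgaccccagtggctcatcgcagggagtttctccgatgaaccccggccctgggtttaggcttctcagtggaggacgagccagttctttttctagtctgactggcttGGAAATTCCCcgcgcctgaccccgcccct
Ier3 (chr17:35821463-35821712, plus strand): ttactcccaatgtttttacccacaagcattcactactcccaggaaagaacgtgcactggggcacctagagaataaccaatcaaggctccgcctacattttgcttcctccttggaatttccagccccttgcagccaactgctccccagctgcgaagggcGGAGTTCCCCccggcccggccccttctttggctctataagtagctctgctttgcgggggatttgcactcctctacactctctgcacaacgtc
Tnf (chr17:35202008-35202257, minus strand): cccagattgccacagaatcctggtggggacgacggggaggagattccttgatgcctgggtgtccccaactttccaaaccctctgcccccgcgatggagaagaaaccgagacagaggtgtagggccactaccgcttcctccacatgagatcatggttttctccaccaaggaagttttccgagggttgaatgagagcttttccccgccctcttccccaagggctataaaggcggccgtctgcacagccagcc
Ptgs2 (chr1:150099781-150100030, plus strand): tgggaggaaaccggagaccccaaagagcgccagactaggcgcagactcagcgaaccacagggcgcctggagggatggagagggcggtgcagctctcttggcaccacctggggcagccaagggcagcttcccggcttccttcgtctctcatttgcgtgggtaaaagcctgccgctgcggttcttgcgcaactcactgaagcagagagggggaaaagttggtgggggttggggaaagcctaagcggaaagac
The Nfkbid window held the motif at 2 places, beginning 226 and 181 bases before the start, and the other 2 Nfkbid windows and the window of the second Tnfaip3 start held none. The printed Tnfaip3 window held it 125 and 12 bases before the start, the Nfkbia window 29 bases before it and the Ier3 window 92 bases before it. Of the 34 members, 25 had a window in the RefSeq table, and the motif was found in 12 of these 25 genes (48.0%), against 1204 of all 27025 genes in the table (4.46%). Besides the 4 printed, the 12 were Il6, Cxcl1, Cxcl2, Cxcl10, Rel, Tnip1, Nfkbie and Nfkb2. A match is a description of the letters, and the lack of one in Tnf, Ptgs2, Ccl3 or Rela holds for this window alone.

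**Figure D1:**
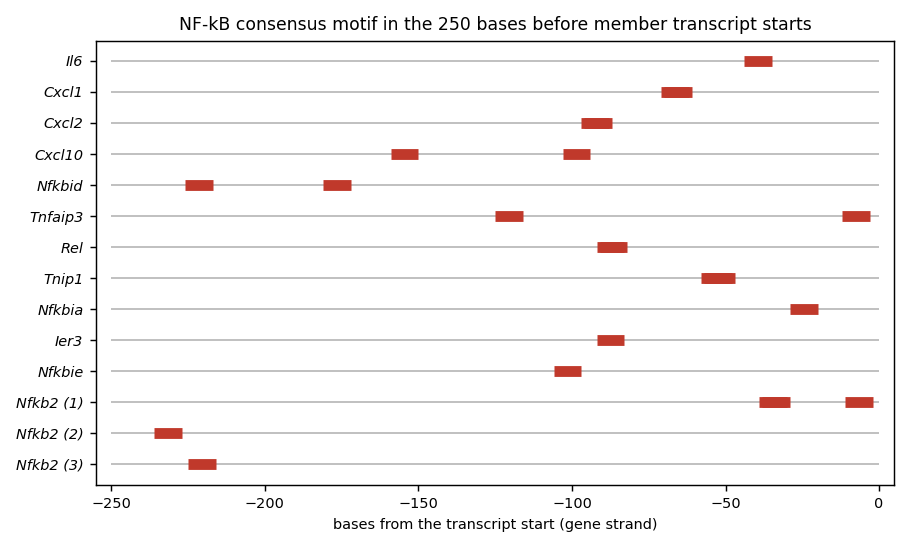
Positions of matches to the NF-kB consensus motif in the 250 bases before the transcript start of member genes, in bases from the start. Each grey line is 1 window that holds a match and each red bar a match or a run of overlapping matches; Nfkb2 has 3 windows, numbered in brackets, and Tnfaip3 has matches 125 and 12 bases before the start.

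Levels are processed signals on the log2 scale from which the 75th percentile of the array was subtracted, so that 0 is the level of the probe at that percentile, and levels of different genes are not set against each other because each probe has its own response. The 75th percentile signal lay between 1086 and 2637 across arrays, 70.7% to 83.3% of probes were above background, and no noncontrol spot was saturated. Differences were tested with limma over all 12 arrays and 23773 genes, with Benjamini-Hochberg adjustment over all of them. A gene is said to have risen or fallen where the adjusted p was under 0.05, and fold changes are given as log2 ± the standard error. Arrays of the same number lay on 1 slide, 1 from every group, and same-numbered arrays deviated together, so a blocked value, with slide as a term of the fit, is given where it changes a call against marrow, and as counts between blood groups. The LSK marker list of 10 genes was above background on all arrays except Slamf1, which was not well above background on any AMD3100 array. Against marrow, the LSK marker Ly6a rose and Hlf fell in G-CSF blood, and Slamf1, Hlf and Mecom fell in AMD3100 blood; Ly6a and Mecom did not pass without marrow array 3. The neutrophil list summed to 34.2 times the 75th percentile on marrow array 3, while the other pair of marrow arrays had 3.35 and 3.48 and blood had 2.47 to 5.39, and member calls against marrow that change without marrow array 3 are given both ways.

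Of the 34 members, 30 were tested and 22 were above background on every array. Zc3h12a and Map3k8 entered the test through G-CSF blood, Ptgs2 through CWHM-823+tGro-b blood and Cd40 through AMD3100 blood, each through that group alone. The 4 members not tested were Il1a and Il6, which were above background on 0 arrays, Cxcl2, above background on 2 G-CSF arrays, and Ripk2, above background on 2 CWHM-823+tGro-b arrays. In bulk RNA of sorted cells, more cells that hold a transcript and more of it per cell cannot be told apart.

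All member genes that differed from marrow were higher in mobilized cells: 6 in G-CSF blood, 3 in AMD3100 blood and 4 in CWHM-823+tGro-b blood, and none was lower in any of the 3 (limma, adjusted p under 0.05). In G-CSF blood these were Tnf, Nfkbid, Ier3, Tnfaip3, Nfkbia and Map3k8, or 20.0% of the tested members, against 1.76% of all genes. In AMD3100 blood they were Nfkbid, Tnfaip3 and Tnf, or 10.0% of the members against 1.44% of all genes. In CWHM-823+tGro-b blood they were Nfkbid, Tnfaip3, Ptgs2 and Ccl4, or 13.3% against 0.374%. Map3k8 and Ptgs2 could enter these shares only through the group where they were high. The list was also chosen with earlier results of these data known, so the shares describe it and do not test it. Over the 26 members above background throughout 2 or more groups, a subset chosen after seeing the data, the counts were 5, 3 and 3 (1.74%, 1.42% and 0.361% of all such genes). Of all genes tested, 1.15% were higher and 0.606% lower in G-CSF blood, 0.505% and 0.934% in AMD3100 blood, and 0.341% and 0.0337% in CWHM-823+tGro-b blood. Nfkbid and Tnfaip3 thus passed in each of the 3 comparisons, which share the marrow arrays.

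With the slide as a block 14 members passed in G-CSF blood, 13 higher and 1 lower, where 19.9% of all genes passed, 7.8% higher and 12.1% lower. In AMD3100 blood 7 passed, all higher (13.1% of all genes, 5.46% higher), and in CWHM-823+tGro-b blood 8, all higher (1.09%, 0.766% higher). The member median was 0.68 in G-CSF blood, 0.44 in AMD3100 blood and 0.44 in CWHM-823+tGro-b blood, and over all genes it was -0.27, 0.11 and -0.05. All G-CSF arrays lay above all marrow arrays for 14 members and below for 0, where 11.4% of all genes lay above and 14.3% below. All AMD3100 arrays lay above marrow for 10 members and below for 0 (14.6% and 12% of all genes), and all CWHM-823+tGro-b arrays for 13 and 0 (4.37% and 5.39%). The blocked counts and these array counts include Map3k8 and Zc3h12a in G-CSF blood and Ptgs2 in CWHM-823+tGro-b blood. Each of these entered the test only through that group. Without marrow array 3 the counts were 5, 2 and 3 higher (0.824%, 0.315% and 0.248% of all genes): Map3k8 no longer passed in G-CSF blood, Tnfaip3 in AMD3100 blood or Ptgs2 in CWHM-823+tGro-b blood. With the block and without marrow array 3 the counts were 6, 8 and 4 (7.07%, 14.4% and 0.597% of all genes). Compared with the block alone, Rela, Rel, Nfkb1, Nfkb2, Icam1, Birc3, Map3k8 and Cxcl1 no longer passed in G-CSF blood, Nfkbia no longer passed in AMD3100 blood, where Traf1 rose and Tnip1 fell, and Nfkbia, Ccl3, Ptgs2 and Zc3h12a no longer passed in CWHM-823+tGro-b blood. After quantile normalization the median of all genes in G-CSF blood moved to -0.10, and the split of all genes in that comparison was 283 higher and 70 lower, against 274 and 144 here.

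**Figure D2:**
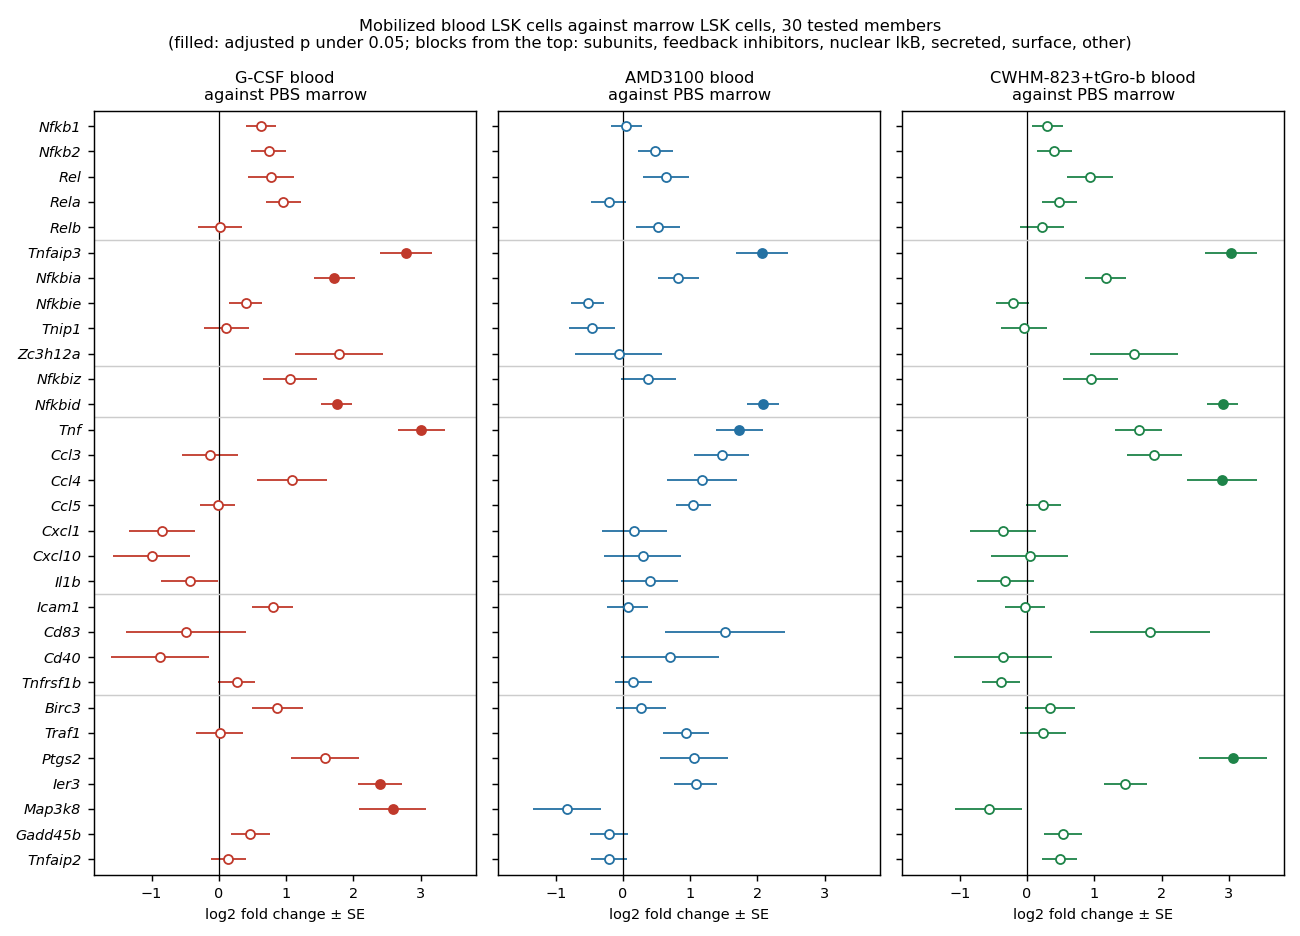
Log2 fold change ± SE of the 30 tested members in G-CSF, AMD3100 and CWHM-823+tGro-b blood against PBS marrow (left to right), 3 arrays a group, ordered by role; filled points have an adjusted p under 0.05. The filled points are 6, 3 and 4, all to the right of 0; Map3k8, Ptgs2 and Zc3h12a rest in part on arrays below background, and the 5 subunits at the top are all open.

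Of the 5 feedback inhibitors, 2 rose against marrow in G-CSF blood, 1 in AMD3100 blood and 1 in CWHM-823+tGro-b blood, beside 1.15%, 0.505% and 0.341% of all genes. With the slide as a block the counts were 3, 2 and 3, beside 7.8%, 5.46% and 0.766% of all genes. With the block and without marrow array 3, 3 rose in G-CSF blood, 1 rose and 1 fell in AMD3100 blood and 1 rose in CWHM-823+tGro-b blood. In these last fits 7.07%, 14.4% and 0.597% of all genes passed in either direction. Both G-CSF counts of 3 include Zc3h12a, which could enter the test only through that group. Tnfaip3, a ubiquitin-editing enzyme that shuts down signalling to NF-kB, had levels of -0.55, -0.69 and 0.06 in G-CSF blood, -0.84, -1.68 and -0.82 in AMD3100 blood, 0.07, -0.74 and 0.21 in CWHM-823+tGro-b blood and -3.30, -2.53 and -3.71 in PBS marrow. It was not well above background on marrow array 3, and no blood array overlapped with marrow. It rose in G-CSF blood by 2.79 ± 0.39 (6.91-fold, adjusted p = 0.00289) and in CWHM-823+tGro-b blood by 3.03 ± 0.39 (8.16-fold, adjusted p = 0.00283), and both calls stood without any 1 array. In AMD3100 blood it rose by 2.07 ± 0.39 (4.19-fold, adjusted p = 0.0287), a call lost without AMD3100 array 1 or 3 or marrow array 1 or 3, where the adjusted p reached 0.122. Its probe lies at chr10:18720776-18720835 in the array design (mm9).

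Nfkbia encodes the main IkB protein, which binds the dimers and returns them to the cytoplasm. Its levels were 3.12, 3.08 and 3.76 in G-CSF blood, 2.78, 1.94 and 2.57 in AMD3100 blood, 2.76, 2.37 and 3.19 in CWHM-823+tGro-b blood and 1.67, 1.37 and 1.78 in PBS marrow. The blood arrays all lay above the marrow arrays, and the G-CSF arrays above the AMD3100 arrays. It rose in G-CSF blood by 1.72 ± 0.31 (3.29-fold, adjusted p = 0.0153), which was lost without G-CSF array 3, marrow array 1 or marrow array 2 (adjusted p up to 0.0842). The differences in AMD3100 and CWHM-823+tGro-b blood, 0.83 ± 0.31 and 1.17 ± 0.31, had adjusted p = 0.185 and 0.229, and 0.0286 and 0.027 with the slide as a block (0.0599 and 0.103 without marrow array 3 as well).

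Nfkbie, a further IkB protein, had levels of -1.29, -1.39 and -1.58 in G-CSF blood, -2.59, -2.11 and -2.35 in AMD3100 blood, -2.04, -2.10 and -1.95 in CWHM-823+tGro-b blood and -1.51, -1.71 and -2.25 in PBS marrow. The G-CSF arrays overlapped with marrow, and the AMD3100 arrays were low. Its differences from marrow were 0.40 in G-CSF blood, -0.53 in AMD3100 blood and -0.21 in CWHM-823+tGro-b blood, and none passed. Zc3h12a, which encodes a ribonuclease that degrades cytokine mRNAs, had levels of -3.39, -3.27 and -2.50 in G-CSF blood, -5.23, -5.81 and -3.68 in AMD3100 blood, -3.71, -4.16 and -1.89 in CWHM-823+tGro-b blood and -5.28, -5.26 and -3.99 in PBS marrow. It was above background on 3 G-CSF arrays, 2 CWHM-823+tGro-b arrays and none of the AMD3100 or marrow arrays. Its mean was at least 1.97-fold higher in G-CSF blood than in marrow, which did not pass (adjusted p = 0.18, and 0.00715 with the slide as a block). In CWHM-823+tGro-b blood its adjusted p was 0.741, 0.0314 with the block and 0.119 with the block and without marrow array 3. Tnip1, a partner protein of the Tnfaip3 product, lay between 1.12 and 2.56 over the 12 arrays with overlapping groups, and its differences of 0.11, -0.46 and -0.05 from marrow, in G-CSF, AMD3100 and CWHM-823+tGro-b blood, did not pass.

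**Figure D3:**
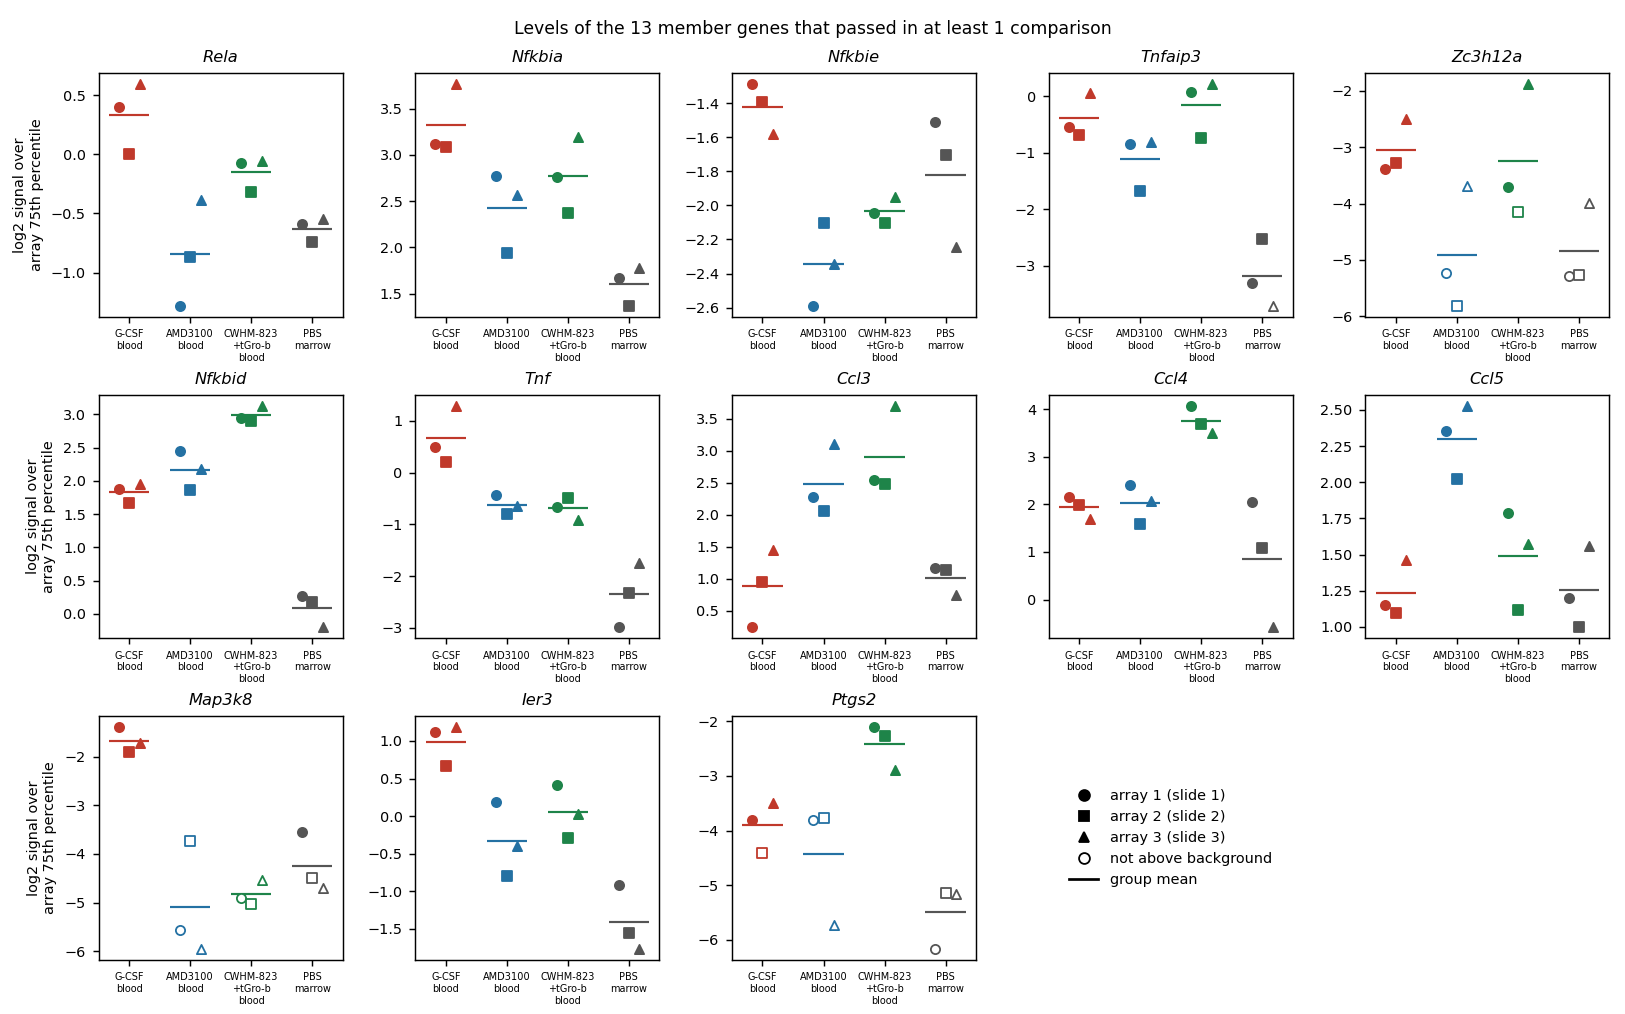
Level on each array, as log2 signal over the array's 75th percentile, of the 13 members that passed in at least 1 of the 6 comparisons, for G-CSF, AMD3100 and CWHM-823+tGro-b blood and PBS marrow (left to right). Shapes mark the slide, open symbols arrays not well above background and lines the group means; the Nfkbid blood arrays lie between 1.67 and 3.13 and its marrow arrays at 0.27 and lower, while Map3k8 is above background on all G-CSF arrays and on 1 other array.

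Both atypical IkB proteins of the list act in the nucleus on NF-kB dimers that are bound to DNA. Nfkbid had levels of 1.88, 1.67 and 1.96 in G-CSF blood, 2.45, 1.86 and 2.18 in AMD3100 blood, 2.95, 2.90 and 3.13 in CWHM-823+tGro-b blood and 0.27, 0.18 and -0.20 in PBS marrow. The groups did not overlap with marrow, and the CWHM-823+tGro-b arrays were above all other arrays. Nfkbid rose in CWHM-823+tGro-b blood by 2.91 ± 0.23 (7.51-fold, adjusted p = 8.1e-05), in AMD3100 blood by 2.08 ± 0.23 (4.23-fold, adjusted p = 0.00221) and in G-CSF blood by 1.75 ± 0.23 (3.37-fold, adjusted p = 0.00233). Each of these 3 calls stood when any 1 of the 12 arrays was left out. Within slides 1, 2 and 3 the difference was 1.61, 1.49 and 2.16 in G-CSF blood, 2.18, 1.68 and 2.38 in AMD3100 blood and 2.68, 2.72 and 3.33 in CWHM-823+tGro-b blood. The probe lies at chr7:31213705-31213764 (mm9). Nfkbiz had levels of 1.21, 1.34 and 1.59 in G-CSF blood, 1.03, 0.63 and 0.43 in AMD3100 blood, 1.16, 1.31 and 1.34 in CWHM-823+tGro-b blood and 1.1, 0.69 and -0.83 in PBS marrow, with marrow array 3 apart from the other marrow arrays. Its difference in G-CSF blood was 1.06 ± 0.41 with all arrays and 0.48 without marrow array 3, and it passed in no comparison.

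The subunits themselves did not pass in any comparison with marrow. In G-CSF blood 4 of 5, the DNA-binding and transactivating subunit Rela, its relative Rel and the precursor genes Nfkb1 and Nfkb2, had all arrays above all marrow arrays, as had 11.4% of all genes. Rela and Rel also did so in CWHM-823+tGro-b blood (4.37% of all genes), and Nfkb2 in AMD3100 blood (14.6%). Rela had levels of 0.40, 0.00 and 0.59 in G-CSF blood, -1.28, -0.87 and -0.39 in AMD3100 blood, -0.07, -0.32 and -0.06 in CWHM-823+tGro-b blood and -0.59, -0.75 and -0.55 in PBS marrow, and its difference in G-CSF blood was 0.96 ± 0.27 (adjusted p = 0.0986). Nfkb1 had levels of 1.81, 1.5 and 1.96 in G-CSF blood, 1.22, 0.96 and 1.38 in AMD3100 blood, 1.62, 1.22 and 1.45 in CWHM-823+tGro-b blood and 1.11, 1.01 and 1.28 in PBS marrow, with a difference of 0.62 ± 0.23 in G-CSF blood (adjusted p = 0.181). In both genes the mean was highest in G-CSF blood, and the CWHM-823+tGro-b mean lay between those of G-CSF blood and marrow. A second Nfkb1 probe differed from marrow by 0.60, -0.55 and 0.20 in G-CSF, AMD3100 and CWHM-823+tGro-b blood, with no call.

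Nfkb2, whose product serves the alternative pathway, had levels of 0.00, -0.25 and 0.57 in G-CSF blood, -0.22, -0.33 and 0.07 in AMD3100 blood, -0.13, -0.16 and -0.41 in CWHM-823+tGro-b blood and -0.70, -0.85 and -0.36 in PBS marrow, and a difference of 0.74 ± 0.26 in G-CSF blood (adjusted p = 0.17). Rel had levels of -2.25, -2.33 and -1.87 in G-CSF blood, -2.68, -2.61 and -1.60 in AMD3100 blood, -2.01, -2.44 and -1.55 in CWHM-823+tGro-b blood and -3.23, -3.0 and -2.57 in PBS marrow, and a difference of 0.78 ± 0.34 in G-CSF blood (adjusted p = 0.237). In the blocked fit these 4 genes passed in G-CSF blood, at adjusted p = 0.02 for Rela, 0.0246 for Nfkb1, 0.0382 for Nfkb2 and 0.0283 for Rel, but without marrow array 3 the blocked values were 0.0612, 0.0616, 0.0795 and 0.0825, and none passed. The share of all genes that passed in G-CSF blood was 19.9% with the block and 7.07% without marrow array 3 as well. No subunit passed with the block in AMD3100 blood or in CWHM-823+tGro-b blood, where Rel had differences of 0.64 and 0.93. Relb, the alternative pathway's partner of Nfkb2, differed from marrow by 0.01, 0.52 and 0.22 in G-CSF, AMD3100 and CWHM-823+tGro-b blood on its tested probe, and by 0.72, 0.39 and 0.36 on its second probe, with no call on either.

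Of the 10 secreted products, 7 were tested, and they did not move as 1 group. Tnf, the cytokine that both results from and triggers NF-kB signalling, had levels of 0.49, 0.20 and 1.29 in G-CSF blood, -0.44, -0.80 and -0.65 in AMD3100 blood, -0.67, -0.50 and -0.91 in CWHM-823+tGro-b blood and -2.99, -2.32 and -1.76 in PBS marrow. All blood arrays lay above marrow, and the G-CSF arrays above the other blood arrays. Tnf rose in G-CSF blood by 3.01 ± 0.35 (8.08-fold, adjusted p = 0.000916), a call that stood without any 1 array, and in AMD3100 blood by 1.73 ± 0.35 (3.31-fold, adjusted p = 0.0349). The AMD3100 call was lost without any of the 3 AMD3100 arrays, G-CSF array 1, marrow array 1 or marrow array 2, with an adjusted p up to 0.153. In CWHM-823+tGro-b blood the difference was 1.66 ± 0.35 with adjusted p = 0.0922. The probe lies at chr17:35336795-35336854 (mm9).

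The CC chemokine genes Ccl3, Ccl4 and Ccl5 attract monocytes and lymphocytes. Ccl4 had levels of 2.16, 1.98 and 1.69 in G-CSF blood, 2.42, 1.59 and 2.08 in AMD3100 blood, 4.08, 3.70 and 3.51 in CWHM-823+tGro-b blood and 2.06, 1.09 and -0.58 in PBS marrow. The CWHM-823+tGro-b arrays were the highest, and marrow array 3 lay below the other marrow arrays. Ccl4 rose in CWHM-823+tGro-b blood by 2.90 ± 0.52 (7.48-fold, adjusted p = 0.0379). Without marrow array 3 the difference was 2.19 (adjusted p = 0.0367), and the call was lost without any 1 of the 9 blood arrays or marrow array 2, with an adjusted p up to 0.186.

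Ccl3 had levels of 0.24, 0.95 and 1.45 in G-CSF blood, 2.28, 2.05 and 3.11 in AMD3100 blood, 2.54, 2.48 and 3.70 in CWHM-823+tGro-b blood and 1.16, 1.14 and 0.75 in PBS marrow. The AMD3100 and CWHM-823+tGro-b arrays lay above marrow, and the G-CSF arrays overlapped with it. The differences were 1.47 ± 0.41 in AMD3100 blood and 1.89 ± 0.41 in CWHM-823+tGro-b blood, with adjusted p = 0.0998 and 0.108, and 0.0266 and 0.0338 with the slide as a block. The CWHM-823+tGro-b call with the block was lost without marrow array 3. Ccl5 had levels of 1.15, 1.1 and 1.46 in G-CSF blood, 2.36, 2.02 and 2.53 in AMD3100 blood, 1.79, 1.12 and 1.57 in CWHM-823+tGro-b blood and 1.2, 1.00 and 1.56 in PBS marrow, highest on the AMD3100 arrays. Its difference there was 1.05 ± 0.26 (adjusted p = 0.073, and 0.00956 with the slide as a block). The T cell list summed to 8.02 to 12.0 times the 75th percentile in AMD3100 blood, against 5.59 to 8.49 in marrow, and the NK cell list to 11 to 15.6, against 9.27 to 14.2; both ranges overlapped with marrow, no gene of either list passed, and their part in the Ccl5 result was not tested.

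The neutrophil-attracting chemokine Cxcl1 and the cytokine Il1b passed in no comparison with marrow. Cxcl1 differed by -0.84, 0.17 and -0.36 in G-CSF, AMD3100 and CWHM-823+tGro-b blood, and Il1b by -0.43, 0.40 and -0.33. Cxcl1 fell in G-CSF blood in the blocked fit (adjusted p = 0.0271), and without marrow array 3 the blocked value was 0.0743. Cxcl10, an interferon-induced chemokine gene, gave unlike values on 2 probes. The tested probe had levels of -4.34, -2.47 and -3.32 in G-CSF blood, -2.48, -0.93 and -2.84 in AMD3100 blood, -2.40, -2.16 and -2.44 in CWHM-823+tGro-b blood and -3.32, -1.87 and -1.94 in PBS marrow, with overlap between blood and marrow and differences of -1.0, 0.29 and 0.04 in G-CSF, AMD3100 and CWHM-823+tGro-b blood. The second probe, with a low marrow mean of -5.23, gave 1.91, 2.19 and 2.57 with adjusted p = 0.0973, 0.0639 and 0.0786. The sign thus differed between the probes in G-CSF blood, while in AMD3100 and CWHM-823+tGro-b blood the sign was the same and the size differed.

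None of the 4 surface members passed against marrow. Cd83, a marker of activated antigen-presenting cells, had levels of -6.25, -2.06 and -2.75 in G-CSF blood, -1.63, -2.15 and -1.26 in AMD3100 blood, -1.49, -1.85 and -0.76 in CWHM-823+tGro-b blood and -4.45, -2.26 and -2.87 in PBS marrow. G-CSF array 1 and marrow array 1 lay far below the rest of their groups, and the AMD3100 and CWHM-823+tGro-b arrays lay above all marrow arrays. The differences were 1.52 ± 0.90 in AMD3100 blood and 1.83 ± 0.90 in CWHM-823+tGro-b blood, with adjusted p = 0.386 and 0.934. Icam1, an adhesion molecule, had levels of -1.02, -1.65 and -1.93 in G-CSF blood, -2.51, -1.96 and -2.32 in AMD3100 blood, -2.11, -2.52 and -2.47 in CWHM-823+tGro-b blood and -1.93, -2.32 and -2.76 in PBS marrow, high in G-CSF blood with overlap with marrow, and a difference there of 0.80 ± 0.30 (adjusted p = 0.191, and 0.0475 with the slide as a block, 0.148 without marrow array 3 as well). Cd40, a receptor of antigen-presenting cells, and Tnfrsf1b, a TNF receptor, differed from marrow by -0.87 and 0.27 in G-CSF blood, 0.70 and 0.16 in AMD3100 blood and -0.35 and -0.39 in CWHM-823+tGro-b blood.

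Among the kinases, adaptors, survival genes and other intracellular members, Ier3, Map3k8 and Ptgs2 passed against marrow, each in 1 comparison. Ier3, an early response gene known for effects on survival and on NF-kB and ERK signalling, had levels of 1.12, 0.67 and 1.18 in G-CSF blood, 0.18, -0.79 and -0.39 in AMD3100 blood, 0.41, -0.29 and 0.03 in CWHM-823+tGro-b blood and -0.92, -1.56 and -1.77 in PBS marrow. All blood arrays lay above marrow, with G-CSF blood the highest. It rose in G-CSF blood by 2.40 ± 0.33 (5.29-fold, adjusted p = 0.00255), a call that stood without any 1 array. The differences in AMD3100 and CWHM-823+tGro-b blood were 1.08 ± 0.33 and 1.46 ± 0.33 (adjusted p = 0.119 and 0.118, and 0.0141 and 0.00966 with the slide as a block). Its probe lies at chr17:35959528-35959587 (mm9).

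Map3k8 encodes a kinase that links Toll-like and TNF receptor signals to ERK and is held inactive by the Nfkb1 precursor protein. Its levels were -1.39, -1.90 and -1.73 in G-CSF blood, -5.58, -3.74 and -5.95 in AMD3100 blood, -4.90, -5.04 and -4.54 in CWHM-823+tGro-b blood and -3.56, -4.50 and -4.71 in PBS marrow. It was above background on all G-CSF arrays, on marrow array 1 and on no other array. It passed in G-CSF blood against marrow (adjusted p = 0.0241) with a fitted difference of 2.58 ± 0.50, in which 2 of the 3 marrow values were at background, and the call was lost without G-CSF array 1 or 3 or marrow array 2 or 3 (adjusted p up to 0.113). Ptgs2, the inducible cyclooxygenase of prostaglandin synthesis, had levels of -3.81, -4.41 and -3.50 in G-CSF blood, -3.81, -3.76 and -5.73 in AMD3100 blood, -2.11, -2.26 and -2.90 in CWHM-823+tGro-b blood and -6.16, -5.15 and -5.15 in PBS marrow. It was above background on all CWHM-823+tGro-b arrays, on 2 G-CSF arrays and on no AMD3100 or marrow array. It was at least 3.05-fold higher in CWHM-823+tGro-b blood than in marrow (adjusted p = 0.0252), a call lost without CWHM-823+tGro-b array 1 or 2 or any 1 marrow array (adjusted p up to 0.13).

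The other intracellular members did not pass against marrow without the block. Traf1, an adaptor of TNF receptors, had levels of -1.05, -0.49 and -1.67 in G-CSF blood, 0.31, -0.34 and -0.40 in AMD3100 blood, -0.60, -0.81 and -1.12 in CWHM-823+tGro-b blood and -1.57, -0.87 and -0.80 in PBS marrow, above marrow on every AMD3100 array (difference 0.94 ± 0.35, adjusted p = 0.18, and 0.0401 with the block and without marrow array 3). Gadd45b, a stress gene that restrains JNK signalling, had levels of -0.36, -0.68 and -0.12 in G-CSF blood, -0.60, -1.0 and -1.58 in AMD3100 blood, -0.26, -0.21 and -0.51 in CWHM-823+tGro-b blood and -0.85, -0.62 and -1.11 in PBS marrow, above marrow on every CWHM-823+tGro-b array (difference 0.53 ± 0.28, adjusted p = 1). In both genes the other 2 blood groups overlapped with marrow. Birc3, an inhibitor of apoptosis, had levels of 0.25, -0.36 and 0.82 in G-CSF blood, 0.27, -1.06 and -0.32 in AMD3100 blood, -0.10, -0.54 and -0.24 in CWHM-823+tGro-b blood and -0.37, -0.98 and -0.56 in PBS marrow, above marrow on every G-CSF array (difference 0.87 ± 0.38, adjusted p = 0.231, and 0.0374 with the slide as a block, 0.108 without marrow array 3 as well). The array design places that Birc3 probe on chromosome 12, while the gene lies on chromosome 9; a second Birc3 probe on chromosome 9 gave 0.28 (adjusted p = 0.545), so the value may not be that of Birc3. Tnfaip2 differed by 0.14, -0.21 and 0.48 in G-CSF, AMD3100 and CWHM-823+tGro-b blood. Ripk2, a kinase downstream of NOD receptors, was not tested; its levels were -5.03, -6.62 and -5.26 in G-CSF blood, -5.52, -4.73 and -5.92 in AMD3100 blood, -3.43, -3.91 and -4.08 in CWHM-823+tGro-b blood and -6.31, -6.63 and -6.04 in PBS marrow, of which 2 CWHM-823+tGro-b values were above background.

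Among the blood groups, G-CSF and AMD3100 differed most, but widely over the transcriptome: 9 members passed, 7 higher and 2 lower in G-CSF blood (30%), against 31.6% of all genes (12.4% higher and 19.2% lower), which is near the background and not particular to these genes. Map3k8 was at least 3.71-fold higher in G-CSF blood than in AMD3100 blood (adjusted p = 0.00456), on a probe that entered the test through G-CSF blood alone. Rela rose by 1.18 ± 0.27 (adjusted p = 0.0131), Ier3 by 1.32 ± 0.33 (adjusted p = 0.017) and Nfkbie by 0.93 ± 0.25 (adjusted p = 0.0205). Tnf rose by 1.29 ± 0.35 (adjusted p = 0.0221) and Nfkbia by 0.89 ± 0.31 (adjusted p = 0.0469, and 0.0564 without marrow array 3), and Zc3h12a was at least 1.42-fold higher (adjusted p = 0.0486). The inhibitors Nfkbia, Nfkbie and Zc3h12a and the subunit Rela were higher in G-CSF blood, and the chemokine genes Ccl3 and Ccl5 were lower. Because the share of calls was near that of all genes, these directions are not read as a pattern of the roles. Zc3h12a also entered the test through G-CSF blood alone.

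Ccl3 fell by 1.60 (SE 0.41, adjusted p = 0.0192) and Ccl5 fell by 1.07 (SE 0.26, adjusted p = 0.0166) in G-CSF blood against AMD3100 blood. The T cell list summed to 3.96 to 8.24 in G-CSF blood, against 8.02 to 12.0 in AMD3100 blood. Genes of other lists also fell, among them H2-Eb1, Cd74 and H2-Aa (dendritic), Vpreb1, Pax5, Ebf1 and Cd79a (B cell), Gzma (NK cell) and C1qa (macrophage). Fcer1a and Gata2 of the mast cell list and the erythroid gene Hba-a1 rose, and Gata2 is also in the LSK list. Without marrow array 3 Fcer1a and Gata2 did not pass (adjusted p = 0.0519 and 0.0513), and Fcer1a was above background on no AMD3100 array. The part of these cell types in the chemokine results was not tested. Without G-CSF array 1 only Map3k8 passed, without G-CSF array 3 the count was 3, without AMD3100 array 1 or 2 it was 5, and without G-CSF array 2 it was 14. Each of the 8 calls other than that of Map3k8 was lost without at least 1 array, with the adjusted p reaching 0.166 for Nfkbia and 0.169 for Zc3h12a. In the blocked fit 12 members rose and 9 fell, while of all genes 62.6% passed, 22.4% higher and 40.2% lower. After quantile normalization the split over all genes was 3321 higher and 2603 lower, against 2939 and 4572 here.

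**Figure D4:**
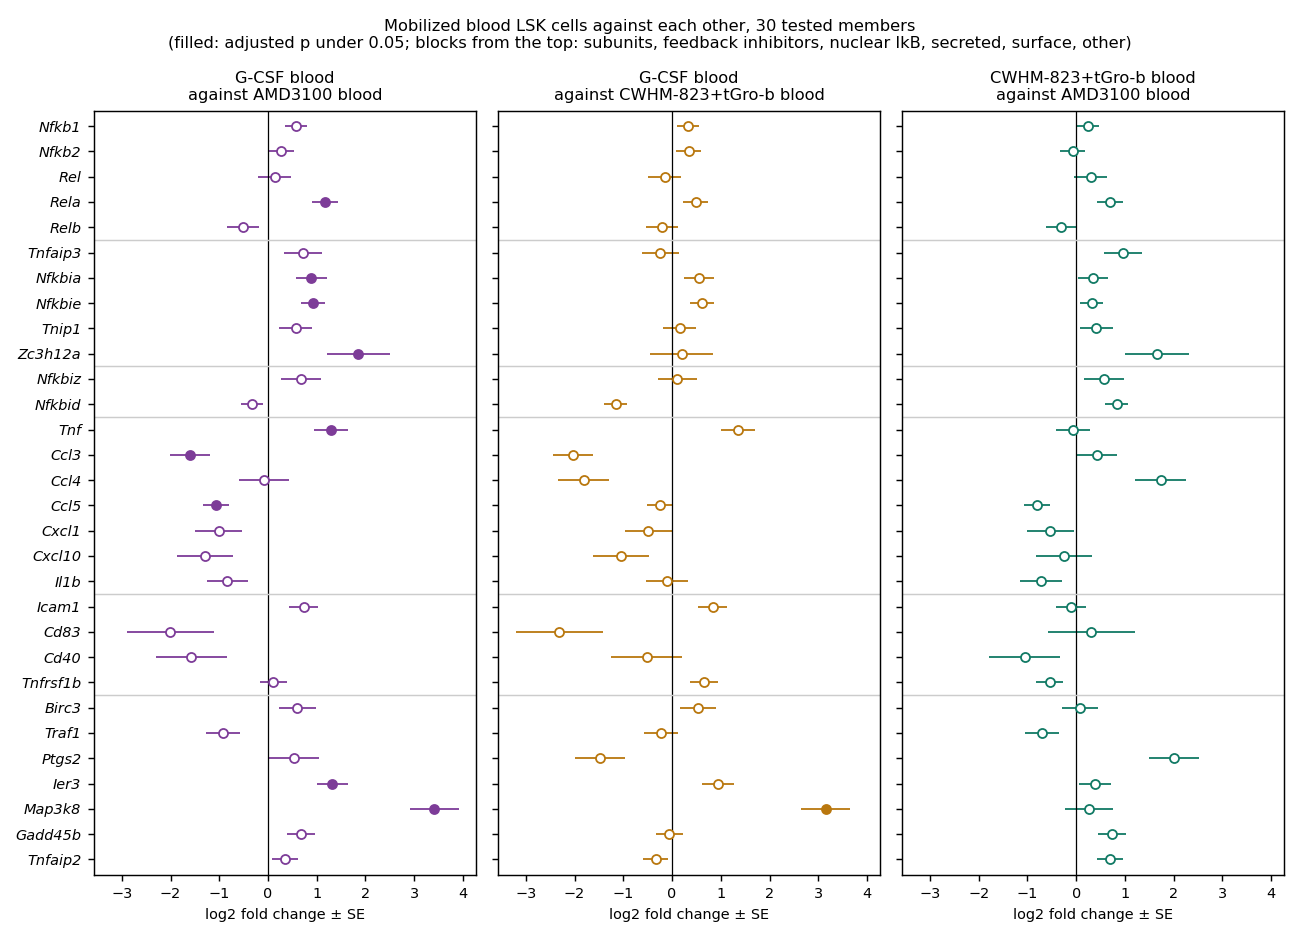
Log2 fold change ± SE of the 30 tested members between the blood groups, 3 arrays a group: G-CSF against AMD3100, G-CSF against CWHM-823+tGro-b and CWHM-823+tGro-b against AMD3100 (left to right). Filled points have an adjusted p under 0.05; there are 9, 1 and 0 of them, and Map3k8 lies farthest to the right in the first 2 panels.

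Against CWHM-823+tGro-b blood, Map3k8 alone passed in G-CSF blood (3.33% of members, against 0.652% of all genes), at least 5.14-fold higher (adjusted p = 0.0132). Its probe entered the test only through G-CSF blood, where it was high, so this share is not read as a result about the members. The call was lost without G-CSF array 1 or 3 or CWHM-823+tGro-b array 1 or 2 (adjusted p up to 0.0746). Ccl3, Ccl4 and Nfkbid lay lower on every G-CSF array than on any CWHM-823+tGro-b array, with differences of -2.03 ± 0.41, -1.82 ± 0.52 and -1.16 ± 0.23 and adjusted p = 0.0555, 0.219 and 0.0545. Without marrow array 3, which alters the shared estimate of the spread, the adjusted p of Ccl4 was 0.0359. With the slide as a block 4 members passed (2.24% of all genes, 1.1% higher and 1.14% lower): Map3k8 and Ier3 rose in G-CSF blood, and Ccl3 and Nfkbid fell; without marrow array 3 as well, Ccl4 also fell (adjusted p = 0.00696).

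No member passed between CWHM-823+tGro-b blood and AMD3100 blood (limma), where 0.156% of all genes passed and 4714 of 23773 genes had an unadjusted p under 0.05. The Ptgs2 mean was at least 2.2-fold higher in CWHM-823+tGro-b blood, which did not pass (adjusted p = 0.126), and Ccl4 differed by 1.73 ± 0.52 (adjusted p = 0.153). With the slide as a block 8 members passed (16.6% of all genes, 8.27% higher and 8.3% lower): Nfkbid, Rela, Ccl4, Ptgs2, Zc3h12a and Tnfaip2 rose and Ccl5 and Il1b fell; without marrow array 3 as well, Rela had adjusted p = 0.0504. Tnfaip2 had levels of 0.37, -0.02 and -0.34 in G-CSF blood, -0.03, -0.44 and -0.57 in AMD3100 blood, 0.51, 0.45 and 0.07 in CWHM-823+tGro-b blood and 0.11, -0.35 and -0.18 in PBS marrow, highest in CWHM-823+tGro-b blood, with adjusted p = 0.0316 in the blocked fit.

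Of 32 signalling genes around NF-kB (receptor adaptors, IkB kinases, ubiquitin ligases and other IkB proteins), 2 rose in G-CSF blood against marrow, and none passed in AMD3100 or CWHM-823+tGro-b blood. Over all genes 1.76%, 1.44% and 0.374% passed in these 3 comparisons. Bcl3, an IkB-family protein that activates through Nfkb1 and Nfkb2 dimers, had levels of 1.42, 1.02 and 1.60 in G-CSF blood, -1.98, -1.83 and -1.54 in AMD3100 blood, -1.44, -1.53 and -1.70 in CWHM-823+tGro-b blood and -1.77, -1.86 and -2.03 in PBS marrow. It rose in G-CSF blood by 3.23 ± 0.23 against marrow (adjusted p = 3.18e-05), by 3.13 ± 0.23 against AMD3100 blood (adjusted p = 0.000224) and by 2.90 ± 0.23 against CWHM-823+tGro-b blood (adjusted p = 0.000121). Myd88, the adaptor of Toll-like and IL-1 receptors, rose in G-CSF blood by 1.95 ± 0.33 against marrow (adjusted p = 0.0113) and by 2.13 ± 0.33 against CWHM-823+tGro-b blood (adjusted p = 0.0119). With the slide as a block the counts of the 32 against marrow were 7 higher and 3 lower in G-CSF blood, 0 and 4 in AMD3100 blood and 0 and 0 in CWHM-823+tGro-b blood, beside 19.9%, 13.1% and 1.09% of all genes called in those fits. Without marrow array 3 as well they were 3 and 1, 0 and 6, and 0 and 0 (7.07%, 14.4% and 0.597% of all genes). The medians of the 32 were 0.22, -0.22 and -0.08.

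Of 17 receptors that feed the pathway, 15 were tested and 2 rose in G-CSF blood against marrow: the IL-1 receptor gene Il1r1 by 3.15 ± 0.50 (adjusted p = 0.0075) and Cd14, a co-receptor for endotoxin, by 1.70 ± 0.34 (adjusted p = 0.0272). Over all genes 1.15% rose in that comparison. Il1r1 was above background on 2 of 3 marrow arrays, and Cd14 had adjusted p = 0.0551 without marrow array 3. None of the receptors passed in AMD3100 or CWHM-823+tGro-b blood, and with the block 5 rose and 2 fell in G-CSF blood, 2 rose in AMD3100 blood and 1 in CWHM-823+tGro-b blood. With the block 7.8%, 5.46% and 0.766% of all genes were higher, and 12.1% were lower in G-CSF blood. Of 9 genes of inflammatory mRNA decay, none passed against marrow in any group, and with the block 4, 1 and 2 rose in G-CSF, AMD3100 and CWHM-823+tGro-b blood, beside the same shares of all genes. Without marrow array 3 as well, 3, 2 and 0 receptors and 1, 1 and 0 genes of mRNA decay rose, and none fell, where 7.07%, 14.4% and 0.597% of all genes passed.

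Of 31 further NF-kB targets, 19 were tested, and against marrow 3 rose and 1 fell in G-CSF blood, 1 rose in AMD3100 blood and 2 rose in CWHM-823+tGro-b blood. Over all genes 1.15%, 0.505% and 0.341% rose and 0.606%, 0.934% and 0.0337% fell in these comparisons. Csf1, the macrophage growth factor, had levels of 0.85, 0.84 and 0.81 in G-CSF blood, -1.14, -0.71 and -1.06 in AMD3100 blood, 0.26, -0.36 and -1.24 in CWHM-823+tGro-b blood and -3.49, -3.62 and -5.47 in PBS marrow. Its blood arrays lay above all marrow arrays, of which 2 of 3 were above background. It rose by 5.03 ± 0.49 in G-CSF blood (adjusted p = 0.000259), 3.23 ± 0.49 in AMD3100 blood (adjusted p = 0.0109) and 3.75 ± 0.49 in CWHM-823+tGro-b blood (adjusted p = 0.00363). Plek, a substrate of protein kinase C, rose in G-CSF blood by 1.97 ± 0.30 and in CWHM-823+tGro-b blood by 2.09 ± 0.30 (adjusted p = 0.00587 and 0.00822). Clec4e, a receptor for mycobacterial glycolipid, rose in G-CSF blood by 1.93 ± 0.32 (adjusted p = 0.00868), and Ebi3, a cytokine subunit, fell there by 1.90 (adjusted p = 0.0018).

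Immediate early genes, which many stimuli and also cell handling can switch on without NF-kB, moved beside the members. Of the 18, 8 rose in G-CSF blood, 7 in AMD3100 blood and 9 in CWHM-823+tGro-b blood, and none fell, with medians of 1.43, 1.32 and 2.05. Over all genes 1.15%, 0.505% and 0.341% rose, and the medians were -0.27, 0.11 and -0.05. Egr3 rose by 4.47 ± 0.39 in G-CSF blood, 5.78 ± 0.39 in AMD3100 blood and 6.44 ± 0.39 in CWHM-823+tGro-b blood (adjusted p = 9.53e-05, 0.000115 and 8.65e-06). Nr4a1 rose by 3.55 ± 0.38, 3.69 ± 0.38 and 4.84 ± 0.38 in the same order (adjusted p = 0.000536, 0.00139 and 7.41e-05). Their part in the member results was not tested.

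Markers of other cell types also differed. The mast cell and basophil list of 8 summed to 7.65 to 10.6 times the 75th percentile in G-CSF blood, 4.95 to 14.3 in AMD3100 blood and 6.40 to 9.77 in CWHM-823+tGro-b blood, against 4.52 to 5.01 in marrow. Of the 8, 3 rose in G-CSF blood, 3 in AMD3100 blood and 2 in CWHM-823+tGro-b blood, beside 1.15%, 0.505% and 0.341% of all genes. Gzmb, Hdc and Cpa3 rose by 4.80, 2.74 and 1.80 in G-CSF blood and by 3.86, 2.51 and 1.71 in AMD3100 blood. In CWHM-823+tGro-b blood Gzmb and Hdc rose by 3.37 and 3.96. Gzmb was not well above background on any marrow array, and Hdc did not pass in AMD3100 blood without marrow array 3. Ms4a2, the beta chain of the IgE receptor that defines mast cells and basophils, was not well above background on any array of any group, and Fcer1a, the alpha chain, was above background on 3 G-CSF arrays, 2 CWHM-823+tGro-b arrays and no AMD3100 or marrow array. The dendritic cell list of 8 summed to 37.1 to 53.8 in G-CSF blood, 77.6 to 104.0 in AMD3100 blood and 58.9 to 92.4 in CWHM-823+tGro-b blood, against 57.7 to 79.3 in marrow. H2-Aa, Cd74 and H2-Eb1 of that list fell in G-CSF blood against marrow, with differences of -4.62, -2.32 and -3.19. Cd74 and H2-Eb1 did not pass there without marrow array 3. The monocyte and macrophage list summed to 29.1 to 34.3 in G-CSF blood, 37.7 to 40.7 in AMD3100 blood and 25.6 to 40.1 in CWHM-823+tGro-b blood, against 29.0 to 37.2 in marrow. The erythroid list of 7 summed to 7.32 to 7.82 in G-CSF blood, 1.87 to 3.06 in AMD3100 blood and 10.8 to 19.6 in CWHM-823+tGro-b blood, against 2.58 to 5.73 in marrow. The haemoglobin gene Hba-a1 rose by 3.63 ± 0.34 in G-CSF blood and 4.45 ± 0.34 in CWHM-823+tGro-b blood (adjusted p = 0.000196 and 7.41e-05), while Rhag, Car1 and Klf1 fell in G-CSF blood. The platelet and megakaryocyte list summed to 6.3 to 6.99 in G-CSF blood, 7.02 to 7.8 in AMD3100 blood and 9.18 to 11.7 in CWHM-823+tGro-b blood, against 10.5 to 13.7 in marrow, and Pf4 fell in G-CSF blood. Without marrow array 3 Rhag, Car1, Klf1 and Pf4 did not pass, and Hba-a1 did in both comparisons. The B cell list overlapped with marrow in each blood group, and Vpreb1 of that list rose in CWHM-823+tGro-b blood. The part of these cell types in the member results was not tested.

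**Figure D5:**
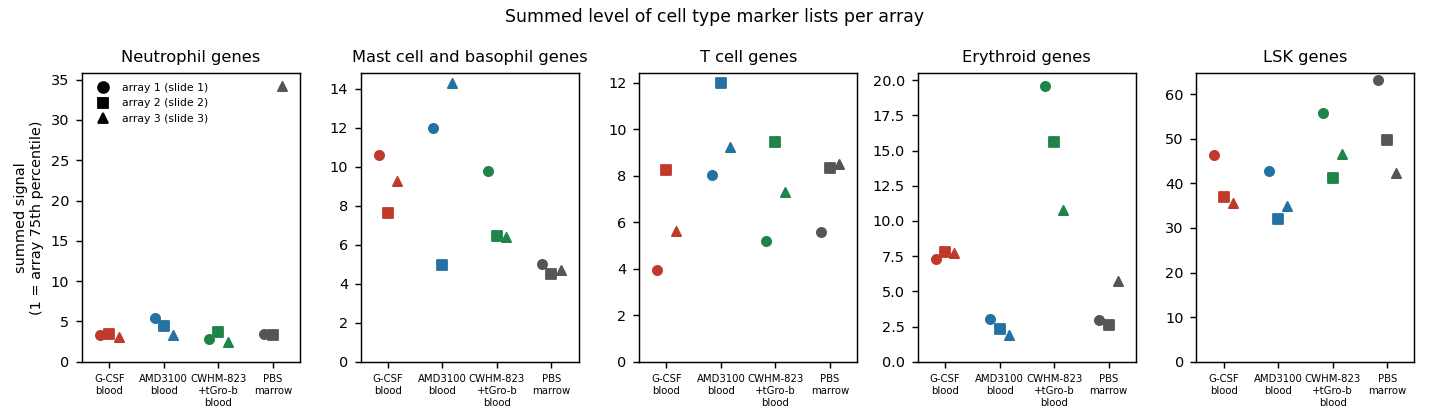
Summed signal of 5 marker lists on each array, in units of the array's 75th percentile, for G-CSF, AMD3100 and CWHM-823+tGro-b blood and PBS marrow (left to right); shapes mark the slide. Marrow array 3 stands at 34.2 for the neutrophil list, the CWHM-823+tGro-b arrays stand at 10.8 to 19.6 for the erythroid list, and the mast cell and basophil list lies between 4.52 and 5.01 on the marrow arrays.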

How the data were processed

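RNA of LSK cells sorted from 12 samples was measured on one-colour (Cy5) Agilent arrays. Per the file headers, the deposited intensities are Feature Extraction 11.5.1.1 processed signals, background-subtracted and detrended within each array, with mean and background intensities and 0 or 1 flags per spot; RNA was amplified before labelling, per the labels' protocols, which can compress or bias levels. The authors' own value table, also intensities, has column medians of 938 to 945 and correlates with the processed signal at 0.998 or higher on the log2 scale; how it was scaled is not given in the sources used here, and it was used as an alternative.

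Outlier spots were left out, spots of a probe averaged, and the 75th percentile of each array subtracted from log2 intensities. Of 39429 probes, 29643 were above background throughout 1 or more groups. The probe with the highest mean stood for each gene name of the scanner files, giving 23773 genes. All 4 groups were fitted together without a block (limma 3.58.1, R 4.3.3, lmFit and eBayes, two-sided, Benjamini-Hochberg), and the procedure was tested on simulated data. Each slide held 1 array of each group under 1 replicate number, per the file headers and labels. Over 18 same-numbered pairs the correlation of deviations from group means ran from 0.260 to 0.616, and these positive values were taken to pair the arrays by number. The median over 36 other pairs was -0.241. Deviations cancel within each group, so this median follows from the same-numbered values and is not separate evidence. "At least" folds compare the brighter group with the higher of the dim probe's own signal and the lowest signal above background. They are taken on group means and leave out the spread between arrays.

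The 34 members and the other lists were chosen with earlier results of these data known. All members could be named; from each other list, the up to 5 genes called in a comparison with the smallest p. The NF-kB consensus motif was searched on both strands. Alternatives were quantile normalization, normexp, the authors' table, other probe filters, probe averaging, an intensity trend, the block, only the groups compared, and each array left out; fitting every probe, and the block without marrow array 3, were added after seeing the data. The number of arrays limits the precision.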

Additional observations from a re-analysis of the deposited data

How the results depend on the processing

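No call on a member changed sign under any alternative run. The replicate block, which fits the slide pairing, raised every count of members called: to 14 in G-CSF blood against marrow (6 without it), 7 in AMD3100 blood (3), 8 in CWHM-823+tGro-b blood (4), 21 for G-CSF against AMD3100 blood (9), 4 for G-CSF against CWHM-823+tGro-b blood (1) and 8 for CWHM-823+tGro-b against AMD3100 blood (0). With quantile normalization beside the block these counts were 14, 8, 9, 19, 3 and 9. With the block and without marrow array 3, chosen after seeing the data, they were 6, 8, 4, 20, 5 and 7. For AMD3100 blood against marrow, normexp, no filter on dim probes and a fit to only these groups each gave 1. For CWHM-823+tGro-b blood against marrow, the authors' table and the probes above background on all arrays each gave 2. For G-CSF against CWHM-823+tGro-b blood, quantile normalization, normexp and an intensity trend each gave 3, and the authors' table, the probes above background on all arrays and the mean of a gene's probes each gave 2.

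Leaving out 1 array at a time gave 4 to 6 members in G-CSF blood against marrow. It gave 1 to 3 in AMD3100 blood, with 1 without AMD3100 array 1, AMD3100 array 3 or marrow array 1. It gave 2 to 3 in CWHM-823+tGro-b blood, with 2 without CWHM-823+tGro-b array 1 or 2 or marrow array 2. It gave 1 to 14 for G-CSF against AMD3100 blood. For G-CSF against CWHM-823+tGro-b blood it gave 0 to 2, with 0 without G-CSF array 1 or 3 or CWHM-823+tGro-b array 1 or 2, and 2 without AMD3100 array 3 or marrow array 3. For CWHM-823+tGro-b against AMD3100 blood it gave 0 throughout. The cause of these differences was not tested. Dim probes limit Map3k8, Ptgs2, Zc3h12a and Cd40, each above background on all arrays of 1 group only.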
